A study of Mus musculus with 15 samples.

Results

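The 10 genes described here, Fmn2, Spire1, Spire2, Cdc42, Rac1, Arf6, Wasl, Actr2, Myo5b and Rab11a, encode proteins that build, steer or use the actin filaments of the oocyte. They were chosen by symbol from what is known of their function, with earlier results of these data known. Each was found once among the 55401 Ensembl gene identifiers of the count files. Whole-oocyte RNA was amplified with the SMARTSeq2 protocol, in which reverse transcription starts at the poly(A) tail, and sequenced in 15 libraries of 6 oocytes each, pooled from Kunming mice. All 5 groups held 3 libraries. In vivo (IVV) oocytes came from follicles that had grown in the ovary. The other oocytes came from preantral follicles grown for 10 days or for 6 days in culture medium. All of this medium held fetuin, insulin, transferrin, albumin and follicle-stimulating hormone. It was used either without NT-4 (IVG) or with this neurotrophin, a ligand of the TRKB receptor (IVG-NT). The series gives an age of 12 to 14 days for the mice as a whole and no separate age for those that gave IVV oocytes. All oocytes were collected at the germinal vesicle stage, before meiosis resumed, so no polar body was formed in the material measured and the values are transcript levels only. The labels do not say which libraries share an experiment, so P values measure the spread between these libraries.

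In a maturing mouse oocyte, the spindle forms near the centre and is carried to the cortex along a network of actin filaments, after which the cell divides into a large egg and a small polar body. The filaments of this network are started by the formin encoded by Fmn2 together with the actin nucleators encoded by Spire1 and Spire2, while the Arp2/3 complex, turned on by small GTPases through proteins of the WASP family, forms the thickened cortical cap over the spindle. Vesicles that carry RAB11A and are moved by the motor myosin Vb organize the density of the network.

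In the mouse build GRCm38 with the GENCODE vM21 annotation, all 10 are protein-coding genes, and the counts of each cover the whole gene. The nucleator genes are Fmn2 (ENSMUSG00000028354, chr1:174501825-174822729, + strand), Spire1 (ENSMUSG00000024533, chr18:67488209-67610790, - strand) and Spire2 (ENSMUSG00000010154, chr8:123332713-123369515, + strand). The GTPase genes are Cdc42 (ENSMUSG00000006699, chr4:137319696-137357720, - strand), Rac1 (ENSMUSG00000001847, chr5:143503634-143528036, - strand) and Arf6 (ENSMUSG00000044147, chr12:69372150-69373783, + strand). Branched actin is represented by Wasl (ENSMUSG00000029684, chr6:24613805-24665009, - strand) and Actr2 (ENSMUSG00000020152, chr11:20062304-20112913, - strand), and vesicle transport by Myo5b (ENSMUSG00000025885, chr18:74440936-74771493, + strand) and Rab11a (ENSMUSG00000004771, chr9:64715299-64737758, - strand). Arf6 shares exon bases with Gm9887 on the other strand, which had only 314 counts over all libraries.

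Library totals ranged from 5954262 to 55593251 counts per library, and IVG-NT day 6 replicates 1 and 2 were the shallowest, at 5954262 and 7125348 counts. A property of the libraries ran across the groups. Reads on CT010467.1, an rRNA gene of the annotation, made up 12.5% to 37.9% of all counts in 9 libraries, called rRNA-rich here, and 0.187% to 0.714% in 6, called rRNA-poor. The IVV group held 1 rRNA-rich library, replicate 3, whereas each in vitro group held 2, replicates 1 and 2. All 13 markers of oocytes had counts in all 15 libraries and summed to 11205 to 29624 CPM, the counts scaled to a common library total. The 13 granulosa markers summed to 59.5 to 311 CPM with 3 to 13 of them present, the 8 theca and stroma markers to at most 45.2 CPM and the 6 macrophage markers to at most 49.4 CPM. The granulosa marker Amh was at 0 in 13 libraries. In such pools, a change in the share of another cell type and a change in RNA per cell cannot be told apart.

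All 10 genes had counts in at least 14 libraries, and all passed the filter on low counts. Levels of different genes were compared as FPKM, the counts scaled by the exon length of the gene and by the total of the library. Rab11a, a GTPase of recycling vesicles, had the highest median over the 15 libraries at 86.3 FPKM (range 32.8 to 125), above 98.3% of the 20977 genes ranked. Myo5b followed at 59.1 FPKM, Cdc42 at 50.04, Arf6 at 46.7 and Rac1 at 44.0. Wasl had a median of 30.0 FPKM, Fmn2 of 23.0, Spire1 of 18.2 and Actr2 of 12.3. Spire2 was lowest, with a median of 2.53 FPKM that lay above 62.6% of genes. The order was firm only at its lower end. Actr2 exceeded Spire2 in all 15 libraries, whereas every other pair of neighbours in the order changed places in at least 5 libraries, and Rab11a exceeded Myo5b in only 9. In IVV oocytes alone, Rab11a had 69.0 ± 28.8 FPKM (SD, n = 3), Rac1 64.0 ± 24.0, Arf6 51.8 ± 33.6 and Cdc42 47.6 ± 10.4, so these 4 overlapped within their SD. Between the nucleators in IVV oocytes, Fmn2 had 20.6 ± 2.42 FPKM, Spire1 9.93 ± 2.12 and Spire2 2.91 ± 2.01 (SD, n = 3).

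**Figure D1:**
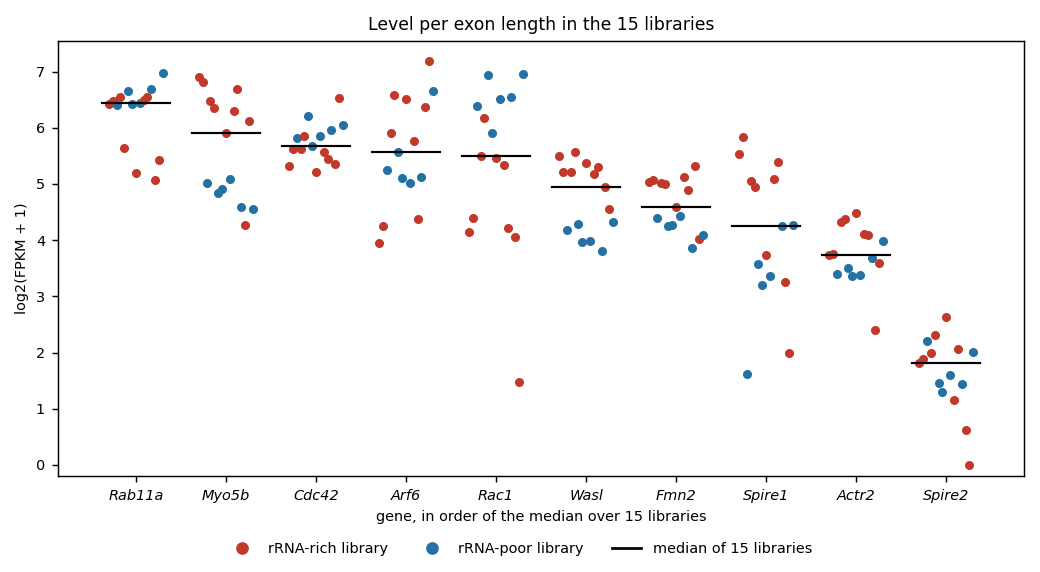
Level of the 10 genes in the 15 libraries as log2(FPKM + 1) on the vertical axis, in order of their median (black line). Red points are rRNA-rich and blue points rRNA-poor libraries. Spire2 has the lowest median, at 2.53 FPKM, and its points overlap the lowest points of Rac1, Spire1 and Actr2.

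From here on, levels of one gene in different libraries are CPM normalized by the TMM method, and differences between groups are log2 fold changes with their SE. A gene was called where the log2 fold change lay beyond 1 and the unadjusted quasi-likelihood P under 0.05. The P adjusted over all 21009 genes tested is given beside many of the values. By this test, in the fit of all 15 libraries, no gene had an adjusted P under 0.05 in any comparison of groups. The spread over all 15 libraries differed widely among the 10 genes. The highest library exceeded the lowest 45.7-fold for Rac1, 33.2-fold for Spire1 and 11.2-fold for Arf6. It exceeded the lowest by only 2.72-fold for Cdc42, a small GTPase of cell polarity, and by 3.02-fold for Rab11a. Within the IVG-NT day 6 group alone Rac1 ran from 9.92 to 454 CPM, and within the IVG day 10 group Spire1 ran from 12.97 to 431 CPM, as the plot of the 10 genes by library shows.

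**Figure D2:**
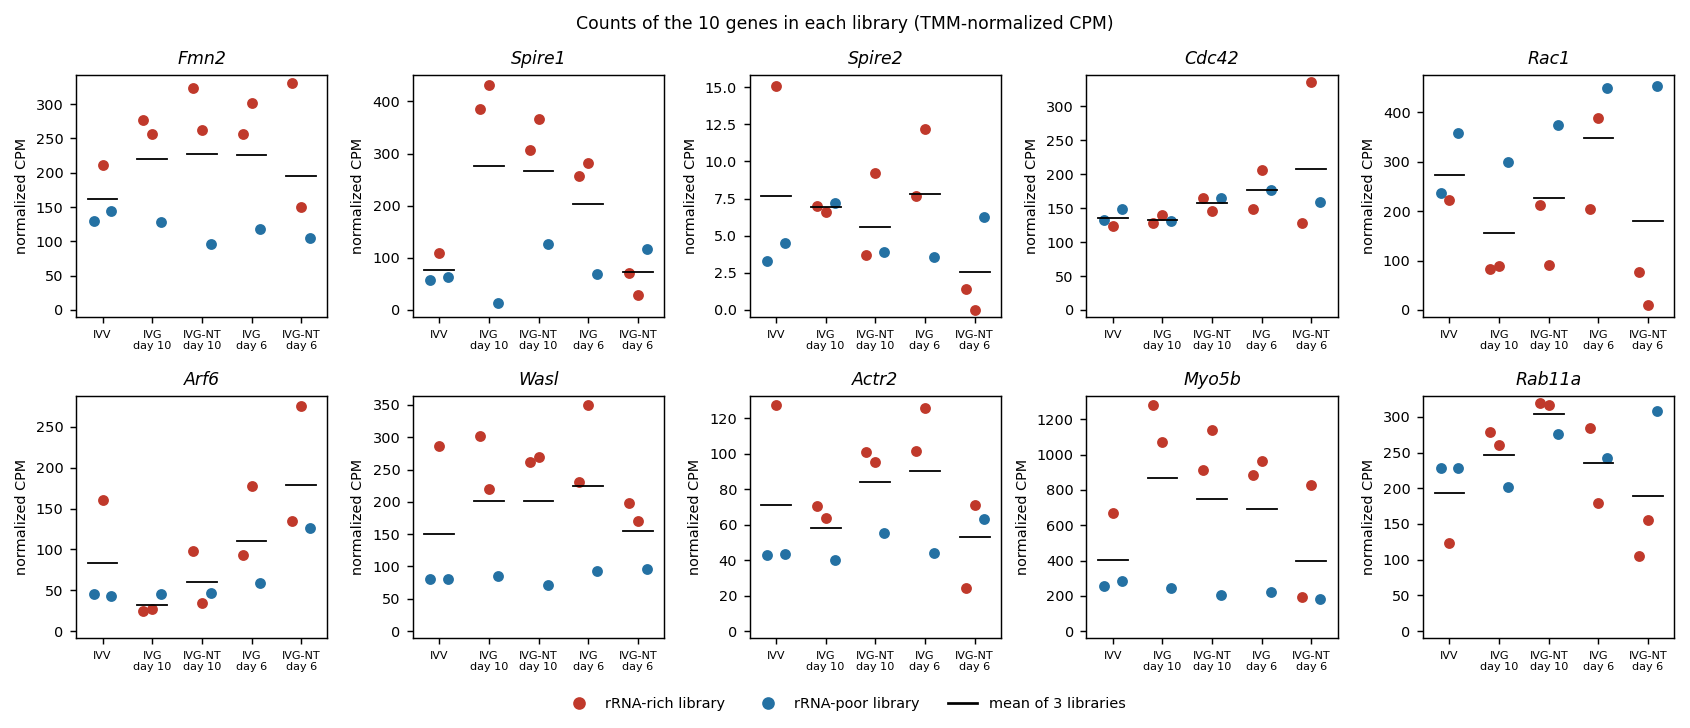
TMM-normalized CPM (linear axis) of each gene in each of the 15 libraries, by group, with the mean of 3 libraries as a black line. Red points are rRNA-rich and blue points rRNA-poor libraries. Fmn2, Wasl and Myo5b split by colour within most groups, Rac1 splits the other way, and Arf6 lies lower at day 10 than at day 6.

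The difference that passed the call was that of Arf6 between the days of culture. Arf6 encodes a small GTPase that acts on membrane traffic and cortical actin. Its level in IVG-NT day 6 oocytes was 135, 276 and 126 CPM in replicates 1 to 3, and in IVG day 6 oocytes 93.5, 177 and 58.5 CPM. At day 10 it was 24.6, 27.4 and 45.6 CPM in IVG and 98.0, 34.8 and 46.8 CPM in IVG-NT oocytes. All 3 IVG day 10 libraries lay below all 6 libraries of day 6, and of the IVG-NT day 10 libraries only replicate 1 lay above some of them. The share of all genes with such a separation was not counted. With both culture arms in the comparison, Arf6 fell by 1.67 ± 0.54 (SE) on the log2 scale from day 6 to day 10, which is 3.18-fold (adjusted P = 0.337). Of the 10 genes it was the only one called in this comparison, against 10.4% of all 21009 genes tested, so the number of calls among the 10 was that of the background. No gene among the 21009 had an adjusted P under 0.05 by this quasi-likelihood test, while 2190 had an unadjusted P under 0.05 and DESeq2's Wald test adjusted to under 0.05 for 433 genes, Arf6 among them (adjusted P = 0.0225).

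The direction of Arf6 was the same within both kinds of library. Among rRNA-rich libraries it ranged from 24.6 to 98.0 CPM at day 10 and from 93.5 to 276 at day 6, where the highest of day 10 overlapped the lowest of day 6. The rRNA-poor libraries of each day were only replicate 3 of IVG and replicate 3 of IVG-NT. Among these it was 45.6 to 46.8 CPM at day 10 and 58.5 to 126 at day 6, without overlap. The share of all genes without overlap in so few libraries was not counted. A two-sided exact permutation test of the day within kinds gave a difference of -1.64 in log2 CPM (p = 0.00952, where 420 assignments allow 0.00476 as the smallest). The call held in all 22 alternative fits, with log2 fold changes from -1.99 to -1.42, unadjusted P from 4.02e-04 to 0.0221 and adjusted P from 0.0225 to 0.941. Depth and marker levels also differed between the days. Day 10 libraries held 33860434 to 45575465 counts and day 6 libraries 5954262 to 55593251 counts, and the granulosa markers summed to 90.7 to 311 CPM at day 10 and 59.5 to 149.7 CPM at day 6. Without both shallow IVG-NT libraries of day 6 the difference was -1.45 ± 0.53 (SE, adjusted P = 0.941). The part of the markers in it was not tested. IVV oocytes had 45.8, 160.4 and 42.6 CPM of Arf6 in replicates 2 to 4, of which the middle value is that of the rRNA-rich library. Group means thus ran from 179 ± 84.0 in IVG-NT day 6 through 109.8 ± 61.1 in IVG day 6, 83.0 ± 67.1 in IVV and 59.8 ± 33.6 in IVG-NT day 10 to 32.5 ± 11.4 CPM in IVG day 10 oocytes (SD, n = 3). The library values of neighbouring groups in that order overlapped.

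**Figure D3:**
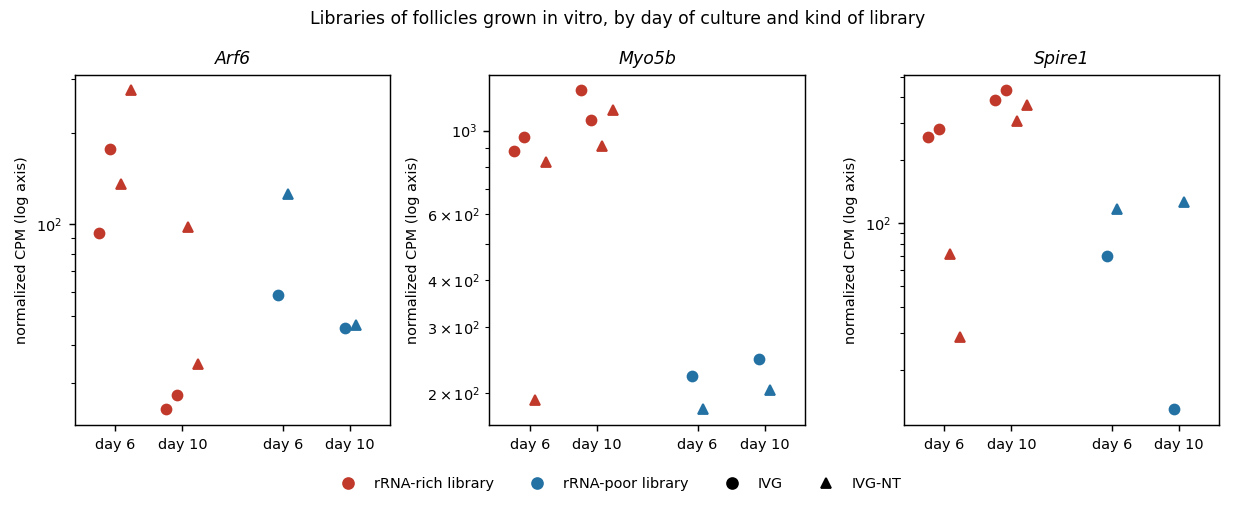
TMM-normalized CPM (log axis) of Arf6, Myo5b and Spire1 in the 12 libraries of follicles grown in vitro, split into rRNA-rich (red) and rRNA-poor (blue) libraries and, within each, into day 6 and day 10. Circles are IVG and triangles IVG-NT libraries. Arf6 lies lower at day 10 within both kinds, with overlap among the rRNA-rich libraries, from 93.5 to 98.0 CPM.

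The other 9 genes did not pass the call between day 10 and day 6. Spire1 had the next largest difference, 1.17 ± 0.66 higher at day 10 (SE, adjusted P = 0.583). Its day 6 values were 257, 281 and 69.5 CPM in IVG and 71.2, 28.7 and 117 CPM in IVG-NT oocytes, and its day 10 values 386, 431 and 12.97 CPM in IVG and 307, 367 and 127 CPM in IVG-NT oocytes. The 4 rRNA-rich libraries of day 10, from 307 to 431 CPM, all lay above the 4 of day 6, from 28.7 to 281 CPM. The share of all genes so separated was not counted. IVG day 10 replicate 3, which is rRNA-poor, had the lowest value of Spire1 in all 15 libraries. Spire1 was called in the rRNA-rich libraries alone (1.70 ± 0.35 SE, adjusted P = 0.102) and without IVG day 10 replicate 3 (1.45 ± 0.53 SE, adjusted P = 0.434). With the kind of library in the fit and both shallow libraries left out, its sign turned (-0.12). Myo5b differed by 0.62 ± 0.59 (SE, adjusted P = 0.838), and the exact permutation test of the day within kinds gave a difference of 0.62 with p = 0.0238. For Spire1 the same exact test gave a difference of 0.78 with p = 0.310, and for the 7 genes besides Arf6, Myo5b and Spire1 its p was from 0.114 to 0.948. The rRNA-rich libraries of Myo5b ranged from 913 to 1279 CPM at day 10 and from 192 to 963 at day 6. Rab11a was 0.37 ± 0.40 higher and Cdc42 0.40 ± 0.39 lower on the log2 scale at day 10 (SE, adjusted P = 0.873 and 0.844). Spire2 differed by 0.47 ± 0.95 and Rac1 by -0.41 ± 0.68 (SE). For Fmn2, Wasl and Actr2 the fitted difference between the days was 0.11 or less in size.

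To compare culture with growth in the ovary, IVG day 10 oocytes were set against IVV oocytes, and none of the 10 genes was called, against 2.76% of all genes. By unadjusted P under 0.05 and by DESeq2's Wald test the number was likewise 0, and every adjusted P by the quasi-likelihood test was 1. Spire1, which cooperates with the formin in starting filaments, differed most, with 57.0, 110.2 and 63.9 CPM in IVV replicates 2 to 4 against the 386, 431 and 12.97 CPM of IVG day 10. The pair of rRNA-rich IVG libraries lay above every IVV library and the rRNA-poor one below them all, and the fitted difference was 1.84 ± 0.96 (SE, adjusted P = 1). It was called without IVG day 10 replicate 3 (2.41 ± 0.79 SE, adjusted P = 0.682), without the filter on low counts (1.82, adjusted P = 0.802) and in the rRNA-rich libraries alone (1.91 ± 0.65 SE, adjusted P = 1), where IVV is a single library whose spread is taken from the other groups. It was 1.14 ± 0.92 with the kind of library in the fit. Arf6 was lower in IVG day 10 oocytes by the same measure (-1.35 ± 0.75 SE, adjusted P = 1). Its rRNA-poor libraries, at 45.6 CPM in IVG and 45.8 and 42.6 in IVV, were alike, and the difference rested on the rRNA-rich libraries (-2.61 ± 0.83 SE, adjusted P = 1 in those alone).

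Rac1, a small GTPase upstream of branched actin, had 237, 223 and 358 CPM in IVV and 82.7, 89.0 and 298 CPM in IVG day 10 oocytes. The groups overlapped through the rRNA-poor IVG library, and the difference was -0.80 ± 0.96 (SE), with an interval of 2 SE from -2.72 to 1.13. Myo5b, the motor of RAB11A vesicles, had 253, 666 and 286 CPM in IVV and 1279, 1069 and 247 CPM in IVG day 10 oocytes, a difference of 1.11 ± 0.85 (SE). With the kind of library in the fit, that difference shrank to 0.29 ± 0.44 (SE). The other 6 genes differed by 0.45 or less on the log2 scale, among them Cdc42, whose IVV values of 133, 124 and 148 CPM stood against 128, 140.4 and 131 CPM (-0.02 ± 0.55 SE). Fmn2 (0.45), Wasl (0.43) and Rab11a (0.35) had positive and Spire2 (-0.14) and Actr2 (-0.29) negative values. Over the 10 genes the median difference was 0.17, and over all genes tested it was -0.20. The median of the 10 turned to -0.063 with DESeq2's size factors, to -0.021 with the kind of library in the fit and to -0.11 with the replicate block, and was 0.51 without IVV replicate 3.

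**Figure D4:**
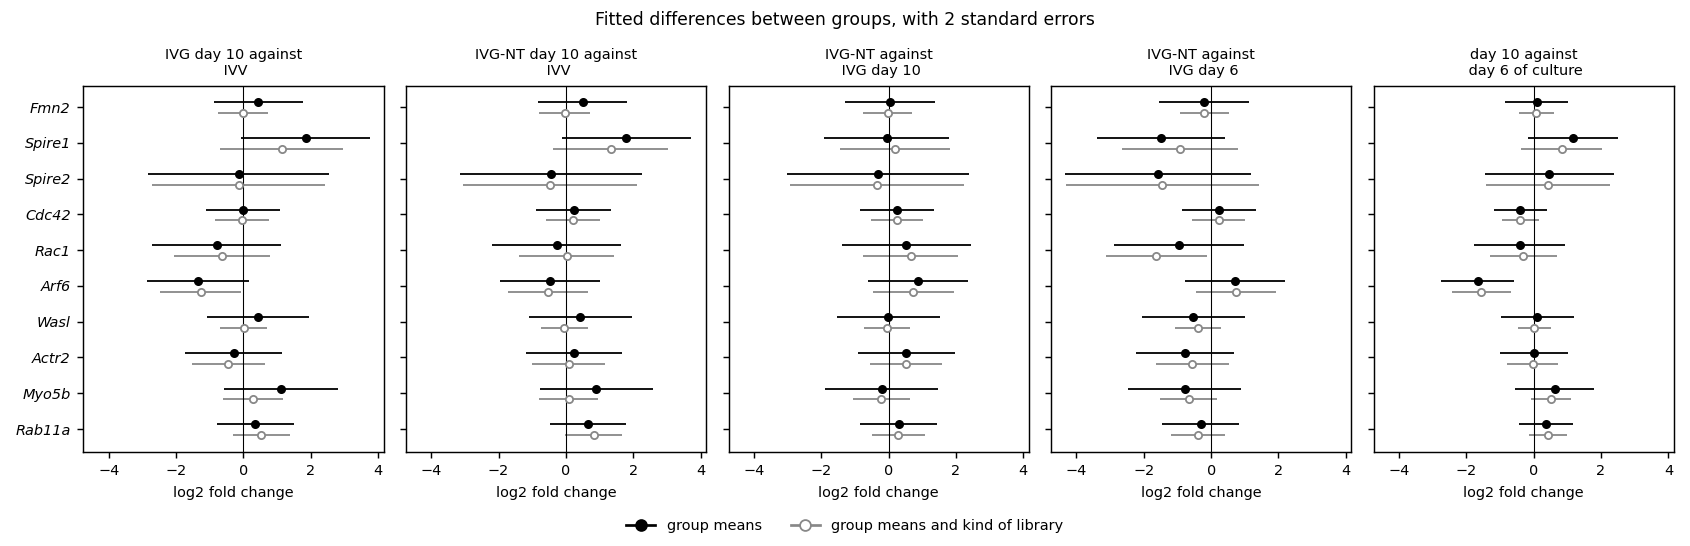
Fitted log2 fold changes of the 10 genes in 5 comparisons, with bars of 2 SE. Filled points are from the fit of group means and open points from the fit with the kind of library added. Arf6 between the days is the only filled point whose difference passed the call, and the open points of Fmn2, Wasl and Myo5b against IVV lie nearer to 0 than the filled ones.

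In IVG-NT day 10 oocytes against IVV oocytes, 0 of the 10 genes were called, against 3.29% of all genes, and the unadjusted P alone and DESeq2's Wald test gave 0 as well. For Spire1 all 3 IVG-NT libraries, at 307, 367 and 127 CPM, lay above all IVV libraries (1.79 ± 0.95 SE, adjusted P = 1). It was called when only both these groups were fitted (1.77 ± 0.57 SE, adjusted P = 0.918) and in the rRNA-rich libraries alone (1.64 ± 0.64 SE, adjusted P = 1). Rab11a likewise lay above without overlap, with 319, 316 and 276 CPM in IVG-NT against 228, 123 and 228 CPM in IVV (0.65 ± 0.57 SE, adjusted P = 1), and was called in the rRNA-rich libraries alone (1.39 ± 0.56 SE, adjusted P = 1). Arf6 differed by -0.47 ± 0.74, Rac1 by -0.27 ± 0.96 and Myo5b by 0.90 ± 0.84 (SE). The fitted values were 0.49 for Fmn2, 0.43 for Wasl, 0.24 for Actr2, 0.23 for Cdc42 and -0.45 for Spire2. The share of all genes without overlap between these groups was not counted, so the lack of overlap of Spire1 and Rab11a has no background beside it. Since both in vitro groups were set against the same IVV libraries, the values of IVG-NT and those of IVG are not independent.

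The effect of NT-4 itself was asked by setting IVG-NT against IVG oocytes of the same day. At day 10, 0 of the 10 genes were called, against 1.24% of all genes, and again 0 by the unadjusted P and by DESeq2's Wald test. Arf6 had the largest difference, with 98.0, 34.8 and 46.8 CPM in IVG-NT against 24.6, 27.4 and 45.6 CPM in IVG oocytes. Each IVG-NT library exceeded the IVG library of its own replicate number, but the groups overlapped (0.88 ± 0.74 SE, adjusted P = 1), and the interval of 2 SE ran from -0.61 to 2.37. Rac1, at 212, 91.0 and 374 CPM against 82.7, 89.0 and 298 CPM, was also higher at each number, and the groups again overlapped (0.53 ± 0.96 SE, adjusted P = 1). Its interval ran from -1.39 to 2.44, so neither an increase nor a decrease by a factor of 2 was outside it. Cdc42 had no overlap, at 165, 145 and 164 CPM against 128, 140.4 and 131 CPM, with a difference of 0.25 ± 0.55 (SE, adjusted P = 1). Actr2, which encodes the ARP2 subunit of the Arp2/3 complex, differed by 0.53 ± 0.72 and Rab11a by 0.30 ± 0.57 (SE), and both, like Cdc42, were higher with NT-4 at each replicate number. The shares of all genes without overlap, or higher at each number, were not counted. Spire2 differed by -0.31 ± 1.35 and Myo5b by -0.20 ± 0.84 (SE), and Fmn2, Wasl and Spire1 by 0.05 or less in size. With the replicate number as a block, the number called stayed at 0, while the count over all genes went from 261 to 127.

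At day 6 the same comparison called 0 of the 10 genes, against 11.6% of all genes, with 0 by the unadjusted P alone and by DESeq2's Wald test. Of the 10 fitted differences 8 were negative, with a median of -0.65 against -0.27 over all genes. With DESeq2's size factors 6 were negative, with a median of -0.14 against 0.0033, and with the kind of library in the fit and both shallow libraries left out 4 were, with a median of 0.26 against -0.20. Wherever both shallow libraries are left out, IVG-NT day 6 is replicate 3 alone, which is rRNA-poor, against IVG libraries of both kinds. For Spire1 the IVG-NT values of 71.2, 28.7 and 117 CPM overlapped the IVG values of 257, 281 and 69.5 CPM (-1.48 ± 0.95 SE, adjusted P = 0.534), and it was called in the rRNA-rich libraries alone (-2.52 ± 0.51 SE, adjusted P = 0.0860). The shallow IVG-NT replicates 1 and 2 lay below their rRNA-rich IVG counterparts, and replicate 3 above its own. Rac1 had 76.1, 9.92 and 454 CPM in IVG-NT against 204, 389 and 448 CPM in IVG oocytes (-0.95 ± 0.96 SE, adjusted P = 0.753), with the lowest value of all 15 libraries in shallow replicate 2, where it had 57 counts. It was called with the kind of library in the fit (-1.62 ± 0.75 SE, adjusted P = 0.307) and in the rRNA-rich libraries alone (-2.88 ± 0.96 SE, adjusted P = 0.192), and its sign turned without both shallow libraries (0.46). Spire2 had 0 counts in IVG-NT replicate 2, where 7125348 counts allow a level of up to 0.421 CPM by counting error alone, and 1.45 and 6.23 CPM in the other replicates, against 3.56 to 12.2 CPM in IVG oocytes (-1.59 ± 1.38 SE). Arf6 was 0.70 ± 0.74 higher and Cdc42 0.23 ± 0.55 higher with NT-4 (SE, adjusted P = 0.770 and 0.945). The other fitted values were -0.79 for Myo5b, -0.78 for Actr2, -0.53 for Wasl, -0.31 for Rab11a and -0.21 for Fmn2.

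The difference between the effect of NT-4 at day 10 and its effect at day 6 was tested as an interaction. It was called for 0 of the 10 genes, against 6.37% of all genes, and for 0 by the unadjusted P alone or by DESeq2's Wald test. All 10 fitted interactions were positive, with a median of 0.60 against 0.33 over all genes. Only 6 were positive with DESeq2's size factors. With the kind of library in the fit and both shallow libraries left out, where IVG-NT day 6 was replicate 3 alone, 5 were. Since all 10 were measured in the same libraries, their signs are not independent. Rac1 had 1.47 ± 1.36 and Spire1 1.43 ± 1.32 (SE, adjusted P = 0.994 and 0.992), Actr2 1.31 ± 1.02 (adjusted P = 0.948) and Arf6 0.18 ± 1.04, whose sign turned with DESeq2's size factors (-0.37). Spire2 had 1.27 ± 1.91 (SE), and the other fitted values were 0.61 for Rab11a, 0.58 for Myo5b, 0.53 for Wasl, 0.25 for Fmn2 and 0.018 for Cdc42. Rac1 was called with the kind of library in the fit (2.28 ± 1.04 SE, adjusted P = 0.546), and both Rac1 and Spire1 were called in the rRNA-rich libraries alone (3.71 ± 1.31 and 2.25 ± 0.69 SE).

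In the quasi-likelihood fit of all 15 libraries, the adjusted P fell under 0.05 for some of the 10 genes between the kinds of library and in no comparison of groups. With group means in the fit, 3 genes were higher and 1 lower in rRNA-rich than in rRNA-poor libraries, and the same number, 4, had an adjusted P under 0.05. The call covered 35.1% of all genes and the adjusted P 23.7%, beside 4 of the 10 for each. Wasl, which encodes N-WASP, an activator of the Arp2/3 complex, had 81.1, 287 and 80.7 CPM in IVV replicates 2 to 4, and 231, 350.5 and 93.2 CPM in IVG day 6 oocytes. In all groups the rRNA-poor libraries were the low ones, with 71.8 to 96.4 CPM in the 6 of them and 171 to 350.5 in the 9 rRNA-rich libraries, without overlap (1.57 ± 0.24 SE, adjusted P = 4.71e-04). Fmn2, the formin of the spindle's actin network, behaved alike, with 96.6 to 144 CPM against 150.4 to 331 CPM, also without overlap (1.15 ± 0.26 SE, adjusted P = 0.00611). The call was lost on size alone without IVG-NT day 6 replicate 1 (0.97) and under DESeq2's size factors (0.9999). The share of all genes without overlap between the kinds of library was not counted.

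Myo5b was higher in rRNA-rich libraries by 1.88 ± 0.31 (SE, adjusted P = 7.87e-04), from 192 to 1279 CPM against 181 to 286 CPM. The overlap came from IVG-NT day 6 replicate 1 alone, since the 8 other rRNA-rich libraries had 666 CPM or more. Rac1 went the other way, with 9.92 to 389 CPM in rRNA-rich and 237 to 454 CPM in rRNA-poor libraries (-1.54 ± 0.47 SE, adjusted P = 0.0297). Actr2 had 0.80 ± 0.36 (SE, adjusted P = 0.123) and Spire1 1.18 ± 0.63 (SE, adjusted P = 0.192), and both were called without both shallow libraries (1.05 ± 0.19 and 1.97 ± 0.47 SE). For Cdc42 and Rab11a the differences were 0.06 ± 0.26 and -0.34 ± 0.28 (SE), and for Spire2 0.21 ± 0.94. Exons of Rac1 overlap those of Daglb on the opposite strand. Daglb held 59901 counts over all libraries, and the strand of counting was not given in the sources used here, so reads of the pair cannot be told apart.

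Over the protein-coding genes tested, the difference between the kinds moved with the length of the exons. In the shortest quintile of genes, with 171 to 2255 bases of exon, the median was -1.97, and in the longest, from 7447 bases, it was 0.90. Myo5b (9766 bases), Fmn2 (7960) and Spire1 (7766) belong to the longest quintile, and Wasl (6165) and Actr2 (5204) to the fourth, whose median was 0.36. Myo5b (1.88) lay just above the upper quartile of its quintile, at 1.86, and Wasl above that of its own, at 1.33. Rac1 (4496 bases) lay below the lower quartile of the third, at -1.27. Arf6, with 1534 bases, belongs to the shortest quintile, and its difference of 0.68 ± 0.40 (SE) lay above the upper quartile there, at -0.66. Whether length accounts for the differences of these genes was not tested. With the kind in the fit, the differences from IVV of Fmn2 (0.45 for IVG day 10) and Wasl (0.43) became -0.003 and 0.01.

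**Figure D5:**
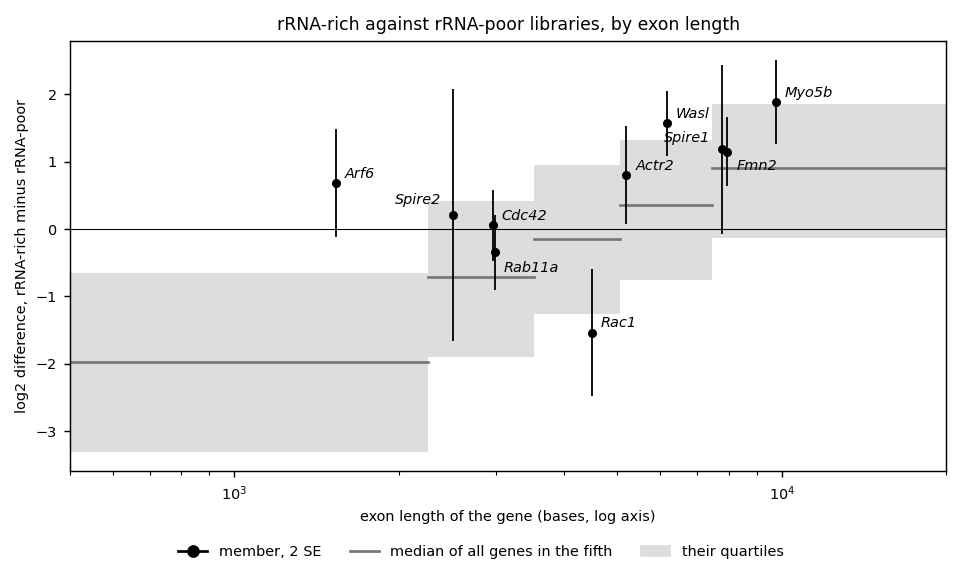
Log2 difference between rRNA-rich and rRNA-poor libraries for the 10 genes (points, bars of 2 SE) against the exon length of the gene in bases (log axis). Grey lines and boxes are the median and quartiles of the protein-coding genes tested in each quintile of exon length. The medians rise from -1.97 in the shortest to 0.90 in the longest quintile. Myo5b, Fmn2, Wasl and Rac1 are the 4 genes whose difference passed the call.

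Of the wider actin machinery, 136 gene identifiers were tested: the rest of the Arp2/3 complex (9), other nucleation-promoting factors (20), other formins (12), actins and the proteins of filament turnover (30), myosins and the Rab11 pathway (25), and regulators of small GTPases (40). Against IVV, 2 of the 136 were called in IVG day 10 oocytes, 1.47% against 2.76% of all genes. They were Iqsec1, an exchange factor for ARF6, higher at 269 ± 146 against 58.6 ± 28.1 CPM (SD, n = 3), and Wipf3, a partner of WASP proteins, lower. Neither had a quasi-likelihood adjusted P under 0.05 against IVV. Iqsec1 was also higher in rRNA-rich than in rRNA-poor libraries (1.70 ± 0.32 SE, quasi-likelihood adjusted P = 0.00209). More of the IVG day 10 than of the IVV libraries were rRNA-rich, and the part of the kind of library in its difference was not tested. Wipf3 had 9 counts in the IVG libraries together and 223 in IVV, and 0 to 12.1 CPM within IVV, so that difference rested on few libraries. The median of the 136 was 0.12 beside -0.20 for all genes. None was called in IVG-NT against IVV or in IVG-NT against IVG at day 10, where 3.29% and 1.24% of all genes were called and their medians were 0.10 and -0.07 (0 and 0 with an unadjusted quasi-likelihood P under 0.05).

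At day 6, 2 of the 136 were higher and 9 lower with NT-4, a share of 8.09% against 11.6% of all genes, and their median was -0.41 beside -0.27. The calls fell on 3 nucleation-promoting factors, 2 formins, 1 gene of filament turnover, 2 myosins and 3 regulators, and on none of the Arp2/3 complex. No called gene had a quasi-likelihood adjusted P under 0.05. Pard6b, a polarity protein that binds CDC42, was higher, with 47.7 to 755 CPM in IVG-NT and 33.0 to 50.2 CPM in IVG oocytes (adjusted P = 0.381). Its rRNA-poor libraries had at most 69.2 CPM, so the 755 CPM came from a shallow replicate. Fmnl3, a formin, was lower at 72.1 ± 24.4 against 364 ± 188 CPM (SD, n = 3; -2.34 ± 0.72 SE, adjusted P = 0.381). Rock2, a kinase downstream of RHOA, fell by 2.96 ± 1.08 on the log2 scale, and Cttn, which stabilizes actin branches, by 2.78 ± 1.05 (SE, adjusted P = 0.381 for both). Their lowest rRNA-rich libraries had 0.348 and 2.17 CPM, against 7.76 and 3.16 CPM in the lowest rRNA-poor ones. The part of the shallow IVG-NT replicates 1 and 2 in these differences was not tested. Wipf3 had 0 counts in all IVG day 6 libraries and 366 in IVG-NT, at least 193-fold higher against a floor of 3 counts over the group. Wipf3 could thus pass the filter on low counts only through other groups. Within IVG-NT it ran from 0.277 CPM in the rRNA-poor replicate 3 to 38.7 CPM, so that the bound rested on the shallow replicates 1 and 2.

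From day 6 to day 10, 10 of the 136 rose and 3 fell, 9.56% against 10.4% of all genes, with a median of 0.30 beside 0.21. They were 3 formins, 1 gene of filament turnover, 3 myosins and 6 regulators, and none had a quasi-likelihood adjusted P under 0.05. Of the formins, Grid2ip was at 0 in all 6 libraries of day 6 and at least 47.2-fold higher at day 10. Its level was near the floor even there, with 183 counts over the day 10 libraries, or 0.754 CPM pooled. No library exceeded 1.61 CPM, and the median was 0 within both kinds of library. With 0 at day 6, Grid2ip could pass the filter on low counts only through other libraries, so its call is not independent of that filter. Cttnbp2nl, which binds cortactin, rose by 2.05 ± 0.64, and Pak4, a kinase activated by CDC42, by 2.20 ± 0.73 (SE). Fmn1 and the myosins Myo5c and Myo10 fell by 2.23, 5.31 and 1.79 on the log2 scale. For Fmn1 and Myo5c the day 6 level was uneven, with 3.31 to 371 CPM and 0.636 to 76.7 CPM within IVG-NT. The genes closest in function to the 10, Actr3 and Arpc2 of the Arp2/3 complex, the actins Actb and Actg1, Pfn1, Cfl1, Myo5a, Rab11b and Rhoa, were called in none of the group comparisons, and Pfn1 (-1.26), Cfl1 (1.09) and Myo5a (1.23) were called between the kinds of library. Between the kinds of library, 29 of the 136 were higher and 25 lower in rRNA-rich libraries, 39.7% against 35.1% of all genes, with Wasf3 (3.83 ± 0.43) and Myh9 (3.03 ± 0.43) among the higher. Among the lower were Tmsb10 (-2.35 ± 0.42), Cyth1 (-3.02 ± 0.62) and Tmsb4x, which was at 0 in all 9 rRNA-rich libraries and had 1.16 to 18.0 CPM in the rRNA-poor ones. Tmsb4x could pass the filter on low counts only through the rRNA-poor libraries, so its call is not independent of that filter. The medians of the lists were -1.11 for the Arp2/3 complex, -0.12 for filament turnover, 0.18 for the regulators, 0.54 for the nucleation-promoting factors, 0.73 for the myosins and 0.75 for the formins, beside -0.54 for all genes.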

How the data were processed

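Sample titles gave the group and replicate number of each library. After removing adaptors and low-quality reads, the authors ran HISAT2 against mm10. They deposited raw counts per Ensembl gene, whole numbers without normalization. How the counts per gene were taken, with what annotation and strand setting, was not given in the sources used here. The series-wide table holds the same counts as the files per library. Symbols, positions and exon lengths came from GENCODE vM21 on GRCm38, which matched 99.5% of the identifiers.

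The 10 genes, the wider lists and the alternatives were chosen with earlier results of these data known. The tests used edgeR 4.0.16, with limma 3.58.1, under R 4.3.3: filterByExpr (minimum count 10) left 21009 genes, TMM scaled them, and the quasi-likelihood F test compared group means in a single fit of all 15 libraries, with a threshold of log2 fold change beyond 1 and P under 0.05, Benjamini-Hochberg adjustment over all genes tested, and an SE from the fold change and its F. The fit for the kind of library added that term, with rRNA-rich set at over 5% of counts on CT010467.1. DESeq2 1.42.0 was an alternative. Permutation tests used log2 CPM (prior count 2) and were run once per gene for the 10 genes, without adjustment. FPKM used the union of exons and all counts of the library. The scripts were tested on simulated counts. PCR copies carry no molecular identifier, so counting limits cover counting error only. No library repeated another: chi-square per gene between replicates was 52.7 to 1768.

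All 10 genes are named in every comparison; of the wider lists, at most the 3 genes called with the smallest P in each direction, and 9 genes in any case. Same-numbered libraries deviated together over all genes in IVG-NT and IVG day 10 (correlations 0.37, 0.41 and 0.73) and in IVG day 10 and day 6 (0.23, 0.15 and 0.54). They did not in every pair of the comparisons with IVG-NT day 6 (0.07 to 0.33), and IVV shares only 2 numbers, with negative correlations. Of the genes this rule names, 1 is not reported here.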

Additional observations from a re-analysis of the deposited data

Results flagged for a closer look

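None of the 10 genes met a criterion for a closer look. In the wider lists 3 genes did, each because the effect of NT-4 at day 10 differed from that at day 6 by the quasi-likelihood test of the interaction, before adjustment over all genes. They are 2.21% of the 136 genes of these lists, against 6.37% of all genes.

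For Wipf3 the interaction was -10.65 on the log2 scale (adjusted P = 0.667), a value that depends on the prior count because all IVG day 6 libraries were at 0. For Fmnl3 it was 2.26 (adjusted P = 0.739), with 72.1 ± 24.4 against 364 ± 188 CPM at day 6 and 349 ± 209 against 368 ± 155 CPM at day 10, IVG-NT against IVG (SD, n = 3). For Pard6b it was -2.99 (adjusted P = 0.664), with 346 ± 366 against 43.4 ± 9.10 CPM at day 6 and 66.1 ± 11.1 against 66.1 ± 2.72 CPM at day 10 (SD, n = 3).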

How the results depend on the processing

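In all, 1392 values were recomputed under 26 settings. Of these, 1207 kept their direction and their side of the threshold, 139 changed sign, none of which was past the threshold in either fit, 24 came newly past it, 3 were lost and 19 counts or levels moved. Leaving the rRNA gene out of the library total moved 6 of 50 group means in FPKM by more than 1 SD. The fall of Arf6 from day 6 to day 10 kept its call in all 22 of its alternatives, and Wasl, Myo5b and Rac1 kept theirs between the kinds of library in all 20. The causes of the changes below were not tested, beyond what a smaller set of libraries implies.

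The number of the 10 genes called went from 0 to 1 for IVG day 10 against IVV with no filter on low counts and to 2 with the rRNA-rich libraries only, and for IVG-NT day 10 against IVV to 1 with only the groups compared in the fit and to 2 with the rRNA-rich libraries only. For NT-4 at day 6 it went to 1 with the kind of library in the fit and to 2 with the rRNA-rich libraries only, and for the interaction to 1 and 2 under these settings. Between the days it went from 1 to 2 with the rRNA-rich libraries only. Without each replicate in turn it ranged from 0 to 1 for IVG day 10 against IVV, from 0 to 2 for NT-4 at day 6, from 1 to 2 between the days and from 0 to 1 for the interaction. Without IVG-NT day 6 replicate 3, Spire2 (-3.44) and Rac1 (-3.03) were called for NT-4 at day 6 and Rac1 (3.55) for the interaction. Between the kinds, Spire1 was called without IVG-NT day 6 replicate 2 (1.501) or 3 (2.04), Actr2 without replicate 3 (1.12) and Arf6 without IVG day 10 replicate 3 (1.07).

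Values that changed sign follow, none of them called. With the kind of library in the fit they were Fmn2 at -0.0032 for IVG day 10 against IVV, Fmn2 at -0.032, Rac1 at 0.016 and Wasl at -0.045 for IVG-NT day 10 against IVV, Fmn2 at -0.029 and Spire1 at 0.19 for NT-4 at day 10, and Actr2 at -0.032 between the days. With the rRNA-rich libraries only they were Cdc42 at 0.14 and Wasl at -0.12 for IVG day 10 against IVV, Wasl at -0.083 and Actr2 at -0.35 for IVG-NT day 10 against IVV, Wasl at 0.037 for NT-4 at day 10, and Rac1 at 0.043 between the days. With only the groups compared in the fit they were Spire2 at 0.0044 and Cdc42 at 0.052 for IVG day 10 against IVV. With the rRNA gene removed they were Wasl at 0.0041 for NT-4 at day 10 and Cdc42 at -0.046 between the kinds, and with no filter on low counts Cdc42 at -0.035 between the kinds. DESeq2's size factors and its Wald test both gave Fmn2 at 0.32, and Rab11a at 0.063 and 0.064 for NT-4 at day 6, Fmn2 at -0.23, Wasl at -0.21 and Actr2 at -0.24 between the days, and Cdc42 at -0.12 between the kinds. These size factors moved the median of all genes from 0.21 to 0.02 between the days and from -0.54 to -0.71 between the kinds.

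With both shallow IVG-NT day 6 libraries left out, a setting added after the totals had been seen, IVG-NT day 6 was the rRNA-poor replicate 3 alone. Signs then changed for Cdc42 (-0.068), Rac1 (0.46) and Rab11a (0.47) at NT-4 day 6, for Spire2 (-0.21), Actr2 (-0.16) and Rab11a (-0.028) between the days, and for Cdc42 (-0.13) between the kinds. With the kind of library in that fit as well, they changed for Spire1 (0.85), Spire2 (0.51), Cdc42 (-0.15), Wasl (0.15), Actr2 (0.39) and Rab11a (0.37) at NT-4 day 6, and for Spire1 (-0.12), Spire2 (-0.42), Wasl (-0.26) and Actr2 (-0.49) between the days.

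Without each replicate in turn, values ranged across 0 for Spire2 (-0.49 to 0.78), Cdc42 (-0.12 to 0.059) and Actr2 (-0.55 to 0.38) in IVG day 10 against IVV, and for Spire2 (-1.02 to 0.45), Rac1 (-0.85 to 0.087), Arf6 (-1.03 to 0.38) and Actr2 (-0.021 to 0.90) in IVG-NT day 10 against IVV. For NT-4 at day 10 they did for Fmn2 (-0.31 to 0.41), Spire1 (-0.61 to 0.42), Rac1 (-0.052 to 1.39), Wasl (-0.37 to 0.40) and Myo5b (-0.65 to 0.24), and at day 6 for Fmn2 (-0.78 to 0.086), Cdc42 (-0.26 to 0.51) and Rab11a (-0.86 to 0.026). Between the days they did for Fmn2 (-0.092 to 0.37), Rac1 (-0.84 to 0.63), Wasl (-0.11 to 0.32) and Actr2 (-0.19 to 0.14), for the interaction for Fmn2 (-0.13 to 0.80), Cdc42 (-0.27 to 0.50) and Arf6 (-0.41 to 0.56), and between the kinds for Spire2 (-0.48 to 0.99) and Cdc42 (-0.17 to 0.088).

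With the replicate number as a block, no call among the 10 genes changed, and over all genes the count called went from 2430 to 1138 for NT-4 at day 6, from 2178 to 1313 between the days and from 1339 to 703 for the interaction. Signs changed under the block for Fmn2 (-0.13), Cdc42 (0.16), Wasl (-0.59) and Myo5b (-0.085) in IVG day 10 against IVV, for Fmn2 (-0.16), Wasl (-0.60), Actr2 (-0.14) and Myo5b (-0.32) in IVG-NT day 10 against IVV, and for Fmn2 (-0.029) and Spire1 (0.11) for NT-4 at day 10.

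The interaction was positive for all 10 genes in the fit reported and for 5 to 10 of them in the alternatives. DESeq2's size factors and its Wald test gave Fmn2 at -0.31, Cdc42 at -0.42, Arf6 at -0.37 and Wasl at -0.025. With the kind of library in the fit Arf6 was at -0.015, and in the rRNA-rich libraries alone Cdc42 was at -0.10. Without both shallow libraries Spire2 was at -0.12 and Rab11a at -0.18, and with the kind of library in that fit Spire1 was at -0.41, Spire2 at -0.96, Arf6 at -0.041, Wasl at -0.23 and Rab11a at -0.092.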

Other observations

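The genes whose profile over the 15 libraries was closest to that of 3 of the 10 genes were found by the root mean square difference of log2 CPM after each gene was centred on its own mean. For Fmn2 they were Hs2st1 (0.19), Senp1 (0.23) and Elmod2 (0.24), where the median over all genes tested was 2.05. For Rac1 they were Tmem248 (0.43), Gpatch11 (0.47) and Arf5 (0.49), with a median of 1.91, and for Arf6 they were Exosc9 (0.59), Rhbdd3 (0.61) and Skiv2l (0.62), with a median of 2.32. All these profiles share the same 15 libraries, with their split into rRNA-rich and rRNA-poor.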
